A study of Mus musculus with 6 samples.

Results

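The genes described were 10 members of the antioxidant programme of the transcription factor NRF2: Nfe2l2, which encodes NRF2 itself, and the target genes Nqo1, Hmox1, Gclc, Gclm, Txnrd1, Srxn1, Gsta4, Gstm1 and G6pdx. They were taken by name from a table of 30914 genes, in which all 10 were found. The transcriptome was sequenced in heart tissue of male C57BL/6J mice, aged 8 weeks, of wild-type genotype. Mice of the Ang II group received angiotensin II at 1 µg/kg/min for 4 weeks by osmotic pump, which induces pathological cardiac hypertrophy. Mice of the Ang II + Tec group received the same infusion and, in its last 2 weeks, the flavonoid tectochrysin (Tec) at 5 mg/kg. Each group held 3 libraries, and the comparison asked how cardiac transcripts under Ang II differ when Tec is added. Hearts without Ang II were not analysed here, so a level cannot be set against an untreated heart.

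NRF2 is held at a low level by KEAP1, an adaptor that presents it to a ubiquitin ligase for degradation. Oxidants and electrophiles modify KEAP1, and NRF2 then accumulates, pairs with small MAF proteins in the nucleus and activates genes that carry antioxidant response elements. In the heart these genes serve glutathione synthesis, thiol reduction, haem breakdown and the supply of NADPH. Much of the control of NRF2 acts on the protein, which the transcript of Nfe2l2 does not show.

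Values are FPKM, fragment counts scaled by transcript length and library size, and where 3 values stand together they are replicates 1, 2 and 3. Fold changes are differences of log2(FPKM + 1), Ang II + Tec minus Ang II, with the standard error (SE) of the fit. The added 1 understates the change of genes with low values. The samples carried heart transcripts. The 8 ventricular cardiomyocyte markers summed to 12084, 9876 and 12048 FPKM under Ang II and to 11861, 10698 and 10855 FPKM under Ang II + Tec, with Actc1 the most abundant. All 6 lymphocyte markers stayed under 0.5 FPKM in every library.

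Several libraries stood apart before any comparison of the NRF2 genes. The 5 atrial markers summed to 6205 and 10253 FPKM in Ang II replicates 1 and 2 and to 5056 FPKM in Ang II + Tec replicate 2. They reached only 256 FPKM in Ang II replicate 3 and 906 and 128 FPKM in Ang II + Tec replicates 1 and 3, with Nppa the most abundant gene of the list. Nppa alone had 256, 906 and 125 FPKM in these libraries, nearly all of each sum. The paper measured its transcript (Anp) as one associated with hypertrophy, so the sum may not reflect atrial tissue alone. Myl7, the atrial myosin light chain, was listed at 0 in Ang II replicate 3 and Ang II + Tec replicate 1 and reached 1040 FPKM in Ang II + Tec replicate 2. Atrial transcripts were thus abundant in 3 libraries and divided both groups. Adipocyte markers followed the same libraries, with sums of 13.1, 37.3 and 1.15 FPKM under Ang II and 0.32, 119 and 3.47 FPKM under Ang II + Tec, led by Cfd. Fibroblast markers, led by Dcn, summed to 775, 1029 and 172 FPKM under Ang II and to 141, 233 and 156 FPKM under Ang II + Tec. All 8 fibroblast markers had estimates below 0, 5 of them at an unadjusted p under 0.05 by limma. Of all genes tested, 80% had estimates below 0 and 16.5% were lower at that level. No fibroblast marker was at 0, and Ang II replicate 3 lay near the Ang II + Tec group. Endothelial markers, led by Egfl7, summed to 108, 116 and 107 FPKM under Ang II and 101, 102 and 93.3 FPKM under Ang II + Tec. Smooth muscle and pericyte markers, led by Rgs5, summed to 259, 462 and 228 FPKM and to 188, 348 and 196 FPKM.

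Mitochondrially encoded transcripts took 41.3%, 40.1% and 48.9% of all FPKM under Ang II and 51.3%, 49.6% and 52.5% under Ang II + Tec. The step that 1 fragment makes in the FPKM of single-exon genes gave relative depths of 1.00, 0.963 and 0.996 under Ang II and 0.965, 1.31 and 1.27 under Ang II + Tec, Ang II replicate 1 being set to 1. The estimates for Ang II + Tec replicates 2 and 3 depended on the FPKM cutoff for these genes, which was chosen after the data were seen. They were 1.33 and 1.27 at a cutoff of 0.02 FPKM, but 0.841 and 0.829 at 0.1 FPKM, so whether these libraries were deeper or shallower than the others is uncertain. Over the 13089 genes tested the median log2 fold change was -0.17, and 80% of the estimates were below 0. That median moved to 0.0020 when libraries were scaled by the median of ratios and to 0.020 under quantile normalization, but was still -0.14 when libraries were scaled to equal sums of FPKM outside the mitochondrial genome. For this reason fold changes are given below also relative to the median of all genes.

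Of the 10 NRF2 genes 0 were called, which required an adjusted p under 0.05 by limma with Benjamini-Hochberg adjustment and a log2 fold change of 1 or more in either direction. Of all genes tested 0.16% (21 of 13089) were called, and 0.183% had an adjusted p under 0.05 at any fold change. The lowest adjusted p among the members was 0.201, that of Hmox1. At an unadjusted p under 0.05 in the same limma fit there were 2 members, Hmox1 lower and Gstm1 higher with Tec. Among all genes 18.6% passed that level, 16.5% lower and 2.09% higher, so the members' total lay near the background. The same 2 members were those whose groups did not overlap, against 21.8% of all genes, of which 18.9% were lower and 2.9% higher with Tec. Estimates were higher for 4 members and lower for 6, with a median of -0.074. Under median-of-ratios scaling 5 members had an unadjusted p under 0.05, Nqo1, Gclc, Gsta4 and Gstm1 higher and Hmox1 lower, against 7.36% of all genes higher and 8.2% lower. Under quantile normalization the same 5 members passed, against 8.33% and 7.85%. With equal sums outside the mitochondrial genome they were Hmox1 and Gstm1, as in the unscaled data, against 2.31% higher and 13.6% lower. By limma 0 members were called under any of these 3 scalings. Relative to the median of all genes tested in the unscaled data, 7 members lay above and 3 below, the latter being Hmox1, G6pdx and Srxn1. Relative values not given beside their genes below were 0.055 for Nfe2l2, 0.13 for Gclm and 0.023 for Txnrd1, whose estimates were below 0. For Gclc, Gsta4 and G6pdx they were 0.23, 0.28 and -0.20.

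These counts depended on single libraries. Without Ang II replicate 3, 544 genes were called and the members called numbered 1, Hmox1. Leaving out Ang II replicate 1 gave 3 called genes and leaving out replicate 2 gave 6, while leaving out any of Ang II + Tec replicates 1, 2 or 3 gave 0 by limma, with 7.75%, 17% and 7.68% of genes lower and 1.64%, 1.24% and 1.35% higher at an unadjusted p under 0.05. With 2 libraries left in a group, the filter on 3 libraries no longer admits genes present in that group alone, which takes such genes out of these counts. Calls lower with Tec, 10 in all libraries, also became 0 without any 1 Ang II + Tec replicate. How far the filter moved the counts was not tested. Members at an unadjusted p under 0.05 numbered 1, Hmox1, when either Ang II replicate 2 or Ang II + Tec replicate 3 was left out, and were Hmox1 and G6pdx without Ang II + Tec replicate 2. Hmox1 and Gstm1 passed without replicate 1 of either group, and Hmox1, Srxn1 and Gstm1 without Ang II replicate 3. Without Ang II replicates 1, 2 and 3 in turn, 6.21%, 7.62% and 39.2% of genes were lower at that level. Those higher were 1.23%, 1.37% and 4.32%. An exact permutation test of 3 libraries against 3 cannot give a two-sided p below 0.1.

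**Figure D1:**
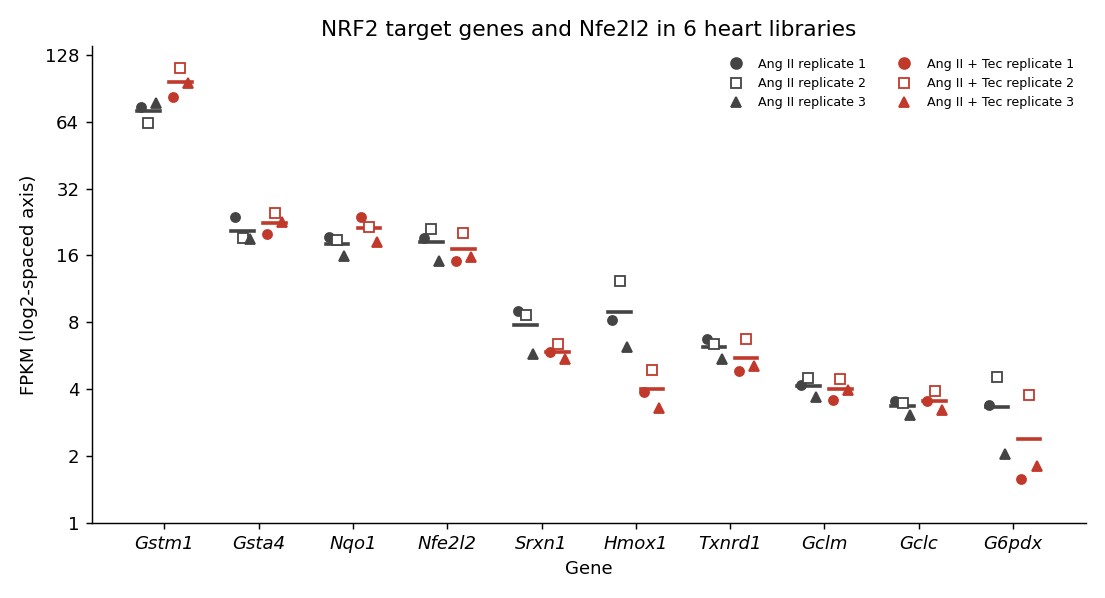
FPKM of the 10 NRF2 genes (vertical axis, log2-spaced) in each of 3 Ang II libraries (grey) and 3 Ang II + Tec libraries (red), with the mean of each group as a bar and genes ordered by mean FPKM over the 6 libraries. The groups are apart for Hmox1, with 6.16 to 12.2 FPKM against 3.29 to 4.86, and for Gstm1, with 63.0 to 77.7 FPKM against 82.5 to 112, and overlap for the other 8 genes.

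Levels differed widely among the 10 genes. Gstm1 was the most abundant, with a mean of 84.2 FPKM over the 6 libraries, followed by Gsta4 at 21.6, Nqo1 at 19.6 and Nfe2l2 at 17.7. A lower tier held Srxn1 at 6.85, Hmox1 at 6.44, Txnrd1 at 5.86, Gclm at 4.06, Gclc at 3.45 and G6pdx at 2.85 FPKM. Neighbours in this order were apart in their ranges over the 6 libraries at only 3 steps: Gstm1 above Gsta4, Nfe2l2 above Srxn1 and Txnrd1 above Gclm. Gclm nevertheless exceeded Gclc in each of the 6 libraries.

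The regulator came first in the order of roles. Nfe2l2 had 19.1, 21.1 and 15.2 FPKM under Ang II and 15.0, 20.3 and 15.8 FPKM under Ang II + Tec. One group lay within the span of the other but for a single low value, and the high libraries were the 3 with atrial transcripts. Ang II replicate 3 was the lowest and Ang II + Tec replicate 2 the highest of their groups, as for 54.4% of all genes tested. The estimate was -0.11 (SE 0.17, adjusted p = 0.696 by limma with Benjamini-Hochberg adjustment), and its sign turned under median-of-ratios scaling (0.11), quantile normalization (0.12) and a term for atrial transcripts (0.016), but not with equal sums outside the mitochondrial genome (-0.080). Keap1, which targets NRF2 for degradation, had a mean of 8.77 FPKM under Ang II and 7.61 FPKM under Ang II + Tec. Bach1, a repressor that competes for the same DNA elements, had 4.03 and 4.19 FPKM. Mafg, a small MAF partner of NRF2, had 6.79 and 6.98 FPKM. The groups overlapped for these 3 genes. Of 14 tested genes of NRF2 control, 0 were called by limma, and Rbx1, a subunit of the KEAP1 ubiquitin ligase, was the only one at an unadjusted p under 0.05 (fold change -0.30, SE 0.11, adjusted p = 0.240). Among all genes 16.5% were lower at that level. The next by p were Dpp3, which binds KEAP1 (-0.46, SE 0.19), and Sqstm1, the autophagy receptor p62 that also binds KEAP1 (0.28, SE 0.13). Both overlapped between groups, and the median of the list was -0.019.

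Hmox1, the inducible haem oxygenase that opens the haem ring to biliverdin, carbon monoxide and iron, had the largest difference of the 10 genes. It measured 8.22, 12.2 and 6.16 FPKM under Ang II and 3.89, 4.86 and 3.29 FPKM under Ang II + Tec. Every Ang II library lay above every Ang II + Tec library, and Ang II replicate 2 was the highest. Mean levels were 8.87 ± 3.09 FPKM (SD, n = 3) and 4.01 ± 0.792 FPKM (SD, n = 3), a ratio of 0.452. Its log2 fold change was -0.94 (SE 0.24), or -0.78 relative to the median of all genes, with an unadjusted p of 0.00472 and an adjusted p of 0.201 by limma with Benjamini-Hochberg adjustment. It was negative under each of the 16 alternative settings, between -1.37 and -0.71, with adjusted p between 0.00849 and 0.646. The lowest adjusted p came without Ang II replicate 3, where the fold change was -1.15, and with library weights the adjusted p was 0.0271. Those weights were largest in each group for Ang II replicate 2 (1.51) and Ang II + Tec replicate 3 (9.96). These libraries held the highest and the lowest value of Hmox1. The gene lies at chr8:75093621-75100589 on the plus strand, in the coordinates of the table, which match GRCm38.

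Markers of macrophages, cells rich in haem oxygenase, were lower in the same libraries. The 10 markers summed to 368, 554 and 286 FPKM under Ang II and to 195, 194 and 213 FPKM under Ang II + Tec, with Lyz2 the most abundant. All 10 had estimates below 0, 9 at an unadjusted p under 0.05, and 7 did not overlap between groups, with a lowest adjusted p of 0.154 by limma. Among all genes 80% of the estimates were below 0, 16.5% were lower at that unadjusted p and 18.9% were lower without overlap. Within the Ang II group both Hmox1 and the macrophage sum were highest in replicate 2 and lowest in replicate 3. Replicate 3 was the lowest Ang II library for 71.9% of all genes tested. Within the Ang II + Tec group Hmox1 was highest in replicate 2, as were 69.3% of all genes, and lowest in replicate 3. The macrophage sum was highest in replicate 3 of that group and nearly equal in replicates 1 and 2 (195 and 194 FPKM). No marker of the list was at 0. In bulk tissue, fewer cells of a type and less RNA per cell cannot be told apart, and the part of macrophages in the Hmox1 difference was not tested. Haemoglobin and other red blood cell transcripts, led by Hbb-bs, summed to 648, 1018 and 248 FPKM and to 526, 376 and 147 FPKM, with overlapping groups. Their part in the Hmox1 difference was not tested.

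The 3 tested genes whose profile over the 6 libraries lay nearest to that of Hmox1 were Ccna2, a cyclin of the cell cycle, Dynlt1-ps1 and Ctsc, the lysosomal protease cathepsin C. Their root mean square differences from Hmox1, after centring each on its own log2 mean, were 0.0672, 0.073 and 0.0908. Ctsc had 9.13, 13.4 and 6.84 FPKM under Ang II and 4.33, 4.86 and 4.32 FPKM under Ang II + Tec, close to the levels of Hmox1 itself. Ccna2 had 1.36, 2.43 and 0.71 FPKM under Ang II and 0.35, 0.43 and 0.11 FPKM under Ang II + Tec. At such levels the added 1 narrows differences, so its FPKM spanned a wider ratio than that of Hmox1, and it passed the filter on low values through the Ang II libraries alone.

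**Figure D2:**
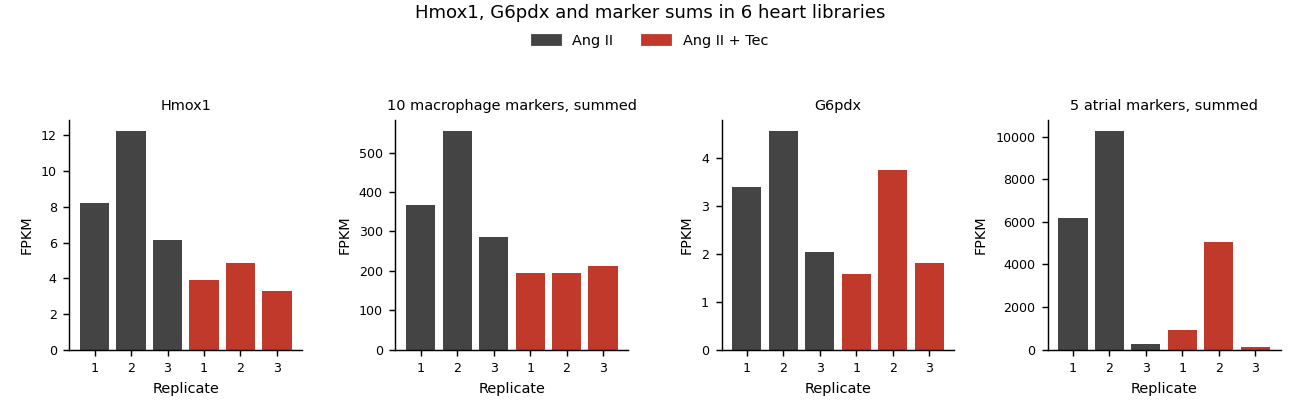
FPKM of Hmox1, of 10 macrophage markers summed, of G6pdx and of 5 atrial markers summed (vertical axes, each with its own scale from 0), with 1 bar for each of 3 Ang II libraries (grey) and 3 Ang II + Tec libraries (red). Hmox1 and the macrophage sum were lower in each Ang II + Tec library than in each Ang II library, while G6pdx and the atrial sum were high in Ang II replicates 1 and 2 and in Ang II + Tec replicate 2.

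Other genes of haem and iron handling were examined as a list, of which 12 were tested and 0 called by limma. At an unadjusted p under 0.05 there were 1 higher and 3 lower, beside 2.09% and 16.5% of all genes, and the median was -0.19. The higher one was Fech, the ferrochelatase that completes haem, with 7.53, 6.77 and 8.04 FPKM under Ang II and 9.18, 8.94 and 9.12 FPKM under Ang II + Tec and groups apart (fold change 0.26, SE 0.11, adjusted p = 0.265 by limma). It is named here although it is not among the 3 lowest p values of the list, after its values were seen. Tfrc, the transferrin receptor that imports iron, had 35.4, 33.3 and 14.8 FPKM under Ang II and 6.61, 6.35 and 6.33 FPKM under Ang II + Tec. Its groups were far apart, with Ang II replicate 3 between the other Ang II libraries and the Ang II + Tec libraries. The fold change was -1.86 (SE 0.30, adjusted p = 0.115 by limma with Benjamini-Hochberg adjustment). Slc48a1, a haem transporter, had a fold change of -0.38 (SE 0.13) with groups apart. Ftl1, the ferritin light chain that stores iron, had -0.59 (SE 0.23) with overlapping groups. Both had adjusted p values above 0.05. Tfrc, and in glutathione metabolism Gpx1, Gpx7 and Gpx8, were called without Ang II replicate 3 and with library weights, all lower with Tec. These settings called 544 of 12900 and 522 of 13089 genes over all.

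Nqo1, the quinone reductase often used as a readout of NRF2 activity, had 19.4, 18.8 and 15.9 FPKM under Ang II and 23.8, 21.5 and 18.3 FPKM under Ang II + Tec. The 2 highest values were Ang II + Tec replicates 1 and 2, while replicate 3 of that group lay below Ang II replicates 1 and 2. The estimate was 0.22 (SE 0.14), or 0.39 relative to the median of all genes, with an adjusted p of 0.382 by limma with Benjamini-Hochberg adjustment. It was above 0 under each of the 16 settings, from 0.079 with library weights to 0.46 under quantile normalization. In direction Nqo1 thus differed from Hmox1, another target of the same factor. Whether the changes of these 2 genes differ was not tested.

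Among other detoxification enzymes and exporters, 18 were tested, 0 were called by limma, and 1 had an unadjusted p under 0.05. That gene was Osgin1, an oxidative stress-induced growth inhibitor, with 0.55, 0.68 and 0.55 FPKM under Ang II and 0.77, 1.32 and 0.99 FPKM under Ang II + Tec. Its groups were apart at a low level, and the fold change was 0.34 (SE 0.13, adjusted p = 0.240 by limma with Benjamini-Hochberg adjustment). Among all genes 2.09% were higher at that unadjusted p, and 2.9% were higher with groups apart. The next by p were Ptgr1, a prostaglandin reductase (-0.69, SE 0.31), and Akr1a1, an aldehyde reductase (-0.48, SE 0.22), both with overlapping groups. The median of the list was -0.029, and 3 of its genes were called without Ang II replicate 3, Ptgr1 and Akr1b8 lower and Ces1d higher with Tec. With library weights Akr1b8 and Ces1d were called. Over all genes, 544 of 12900 were called without Ang II replicate 3 and 522 of 13089 with library weights.

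Gstm1 and Gsta4 encode glutathione transferases, which join glutathione to electrophiles. Gsta4 acts on the lipid aldehyde 4-hydroxynonenal. Gstm1 had 74.9, 63.0 and 77.7 FPKM under Ang II and 82.5, 112 and 95.2 FPKM under Ang II + Tec. All Ang II + Tec libraries lay above all Ang II libraries, with the smallest gap between Ang II replicate 3 and Ang II + Tec replicate 1. Means were 71.8 ± 7.80 FPKM (SD, n = 3) and 96.7 ± 15.0 FPKM (SD, n = 3), a ratio of 1.35. Its log2 fold change was 0.42 (SE 0.15), or 0.58 relative to the median of all genes, with an unadjusted p of 0.0268 and an adjusted p of 0.235 by limma with Benjamini-Hochberg adjustment. It was positive under each of the 16 settings, between 0.30 and 0.66. Its adjusted p ran from 0.0390 with library weights and 0.0513 without Ang II replicate 3 to 0.646 when Ang II replicate 1 was left out, and no setting brought the fold change to 1. The unadjusted p by limma rose above 0.05 when Ang II replicate 2 (0.0745), Ang II + Tec replicate 2 (0.0950) or Ang II + Tec replicate 3 (0.0679) was left out.

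Part of the Gstm1 sequence is not its own. Of its 50-base words, 18.9% also occur in transcripts of other genes, above all Gstm2-ps1 and Gstm3, so its value is uncertain to that extent. Gstm2-ps1 had a mean of 1.40 FPKM and Gstm3 of 0.020 FPKM. Gstm2, which shares 11 words with Gstm1, had 25.4, 28.1 and 24.6 FPKM under Ang II and 22.7, 27.8 and 25.2 FPKM under Ang II + Tec. The levels of the sharing genes were thus below that of Gstm1 in every library. The gene lies at chr3:108012255-108017973 on the minus strand.

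Gsta4 had 23.8, 19.2 and 19.1 FPKM under Ang II and 20.0, 24.8 and 22.7 FPKM under Ang II + Tec. Ang II replicate 1 was above 2 of the Ang II + Tec libraries, so the groups overlapped. The fold change was 0.12 (SE 0.14, adjusted p = 0.614 by limma with Benjamini-Hochberg adjustment). It was above 0 under each of the 16 settings, from 0.048 without Ang II + Tec replicate 2 to 0.36 under quantile normalization, with adjusted p between 0.206 and 0.883. Under median-of-ratios scaling it was 0.34, and under both of these scalings the unadjusted p was 0.0249. Of 17 other glutathione transferases tested, 0 were called by limma. At an unadjusted p under 0.05, Gsta1 was higher and Gstm4 lower, beside 2.09% and 16.5% of all genes, and the median was 0.016. Gsta1 had 0.7, 0.33 and 0.12 FPKM under Ang II and 1.19, 1.02 and 1.19 FPKM under Ang II + Tec. It was higher in each Ang II + Tec library, at a low level (fold change 0.65, SE 0.16, adjusted p = 0.201 by limma). Of the Ang II libraries only replicate 1 reached 0.5 FPKM, so Gsta1 passed the filter on low values through the Ang II + Tec libraries. Gstm4 had a fold change of -0.49 (SE 0.16), and Mgst1, a microsomal transferase, one of -0.39 (SE 0.20).

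Gclc and Gclm encode the catalytic and modifier subunits of glutamate-cysteine ligase, the first and rate-limiting enzyme of glutathione synthesis. Gclc had 3.54, 3.46 and 3.04 FPKM under Ang II and 3.52, 3.91 and 3.21 FPKM under Ang II + Tec. Gclm had 4.19, 4.49 and 3.68 FPKM and 3.57, 4.43 and 3.98 FPKM. Both subunits had overlapping groups and the narrowest ranges of the 10 genes over the 6 libraries, 0.28 for Gclc and 0.26 for Gclm on the log2 scale. The fold change of Gclc was 0.064 (SE 0.12, adjusted p = 0.752 by limma with Benjamini-Hochberg adjustment) and turned to -0.028 with library weights. It was 0.25 under median-of-ratios scaling (unadjusted p = 0.0144, adjusted p = 0.271) and 0.27 under quantile normalization (0.0153 and 0.262), both by limma, but 0.090 with equal sums outside the mitochondrial genome. The fold change of Gclm was -0.037 (SE 0.12, adjusted p = 0.869 by the same test) and turned to 0.15 under median-of-ratios scaling, 0.17 under quantile normalization, 0.026 with an atrial term, 0.015 when Ang II replicate 2 was left out and 0.026 when Ang II + Tec replicate 1 was. With equal sums outside the mitochondrial genome it was -0.0098. The ratio of Gclc to Gclm FPKM was 0.845, 0.771 and 0.826 under Ang II and 0.986, 0.883 and 0.807 under Ang II + Tec. It overlapped between groups and stayed below 1 in all 6 libraries. Of the 50-base words of Gclm, 4.58% are shared, in part with Ppia and Gm10123, and Gm17494 overlaps it on the opposite strand. Ppia had 22.2 to 74.7 FPKM and Gm10123 32.3 to 270 FPKM over the 6 libraries, far above Gclm, so the level of Gclm is uncertain where the sequences are shared.

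The rest of glutathione metabolism held 18 tested genes, of which 0 were called by limma. At an unadjusted p under 0.05 there were 0 higher and 3 lower, and groups were apart for 1 higher and 5 lower genes, with a median of -0.11. The 3 lower of 18 are near the 16.5% of all genes that were lower at that level. Groups were apart for 2.9% of all genes as higher and for 18.9% as lower. Glrx, a glutaredoxin that reduces mixed disulfides of glutathione, had 6.9, 6.9 and 5.32 FPKM under Ang II and 3.89, 3.59 and 3.31 FPKM under Ang II + Tec. No value was shared between the groups, and the fold change was -0.68 (SE 0.13, adjusted p = 0.169 by limma with Benjamini-Hochberg adjustment). Gpx7, a peroxidase of the endoplasmic reticulum, had a fold change of -1.23 (SE 0.40) with groups apart. Gpx1, the main cytosolic glutathione peroxidase, had -0.79 (SE 0.27), with Ang II replicate 3 inside the Ang II + Tec range. For level, Gsr, the glutathione reductase, had means of 6.36 and 5.26 FPKM. Gss, the second enzyme of glutathione synthesis, had 2.40 and 1.93 FPKM. Gpx7 and Gpx1 were, like the fibroblast sum, highest in Ang II replicates 1 and 2, and the part of fibroblasts in these differences was not tested.

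Txnrd1 and Srxn1 act on protein thiols, the former as the cytosolic thioredoxin reductase and the latter as sulfiredoxin, which restores overoxidized peroxiredoxins. Txnrd1 had 6.74, 6.38 and 5.44 FPKM under Ang II and 4.82, 6.69 and 5.10 FPKM under Ang II + Tec. The 3 libraries with atrial transcripts were the highest, and the groups overlapped. In 54.4% of all genes tested, as here, Ang II replicate 3 was the lowest and Ang II + Tec replicate 2 the highest of their groups. The estimate was -0.14 (SE 0.15, adjusted p = 0.564 by limma with Benjamini-Hochberg adjustment), and it turned to 0.057 under median-of-ratios scaling and 0.077 under quantile normalization but was -0.12 with equal sums outside the mitochondrial genome. Srxn1 had 9.02, 8.63 and 5.77 FPKM under Ang II and 5.86, 6.40 and 5.44 FPKM under Ang II + Tec. Ang II replicates 1 and 2 stood above the rest, and Ang II replicate 3 lay among the Ang II + Tec libraries. Its log2 fold change was -0.33 (SE 0.17, adjusted p = 0.316 by the same test), or -0.17 relative to the median of all genes. Without Ang II replicate 3 it was -0.51 with an adjusted p of 0.0176, and with library weights the adjusted p was 0.0403, both short of a fold change of 1. Other settings weakened it, to -0.13 under median-of-ratios scaling, -0.12 under quantile normalization and -0.23 without Ang II replicate 1, where the adjusted p was 0.698, the highest over the settings. With equal sums outside the mitochondrial genome it was -0.30. The coordinates of Srxn1 in the table were not those of GENCODE M21, whereas those of the other 9 members were.

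Partners of these enzymes were tested as a list of 18 genes, of which 0 were called by limma, with a median of -0.050. Txn1, the thioredoxin that Txnrd1 reduces, had 56.0, 63.3 and 39.5 FPKM under Ang II and 40.6, 38.1 and 38.7 FPKM under Ang II + Tec, a pattern of 2 high libraries like that of Srxn1. Prdx1, a peroxiredoxin that sulfiredoxin repairs, had means of 67.8 and 57.6 FPKM with overlapping groups. At an unadjusted p under 0.05, Msrb1, a methionine sulfoxide reductase, was lower (-0.51, SE 0.14, adjusted p = 0.207 by limma). Txnip, which binds and inhibits thioredoxin, was higher (0.41, SE 0.15, adjusted p = 0.234 by limma). The groups were apart for both. Among all genes 2.09% were higher and 16.5% lower at that unadjusted p, and groups were apart for 2.9% and 18.9%.

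G6pdx encodes glucose-6-phosphate dehydrogenase, which feeds the pentose phosphate pathway and supplies NADPH to the reductases. It had 3.38, 4.55 and 2.03 FPKM under Ang II and 1.57, 3.75 and 1.80 FPKM under Ang II + Tec. High values lay in the 3 libraries with atrial and adipocyte transcripts and low values in the other 3, across both groups. Ang II replicate 3 was the lowest and Ang II + Tec replicate 2 the highest of their groups, as for 54.4% of all genes tested. The fold change was -0.37 (SE 0.30, adjusted p = 0.471 by limma with Benjamini-Hochberg adjustment) and -0.11 with a term for atrial transcripts, which was added after the data were seen. Single libraries moved it both ways, to -0.64 (adjusted p = 0.266) when Ang II + Tec replicate 2 was left out and -0.60 (adjusted p = 0.123) when Ang II replicate 3 was. It weakened to -0.17 (adjusted p = 0.855) in the absence of Ang II replicate 2 and to -0.20 (adjusted p = 0.801) in that of Ang II + Tec replicate 1. With library weights it was -0.78 (adjusted p = 0.0535), under median-of-ratios scaling -0.20, under quantile normalization -0.18 and with equal sums outside the mitochondrial genome -0.34. The part of atrial and adipose tissue in the level of G6pdx was not tested beyond that term. Its nearest profiles were Phgdh, the first enzyme of serine synthesis, Pgrmc1, a haem-binding membrane protein, and Fzd7, a Wnt receptor, at root mean square differences of 0.0374, 0.0402 and 0.0495. Phgdh had 0.95, 1.53 and 0.29 FPKM under Ang II and 0.15, 1.08 and 0.29 FPKM under Ang II + Tec, where the added 1 narrows differences, so its FPKM spanned a wider ratio than that of G6pdx. Of its 50-base words, 16.9% are shared with Ikbkg, which overlaps it on the opposite strand, and with G6pd2. Ikbkg had 4.45, 4.12 and 3.55 FPKM under Ang II and 3.30, 4.17 and 3.77 FPKM under Ang II + Tec, near the level of G6pdx, which leaves the level of G6pdx uncertain where the sequences meet.

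NADPH supply and the pentose phosphate pathway were examined as a list that also held enzymes which form no NADPH themselves, among them Pgls, Rpia, Rpe, Tkt and Taldo1. Of its 12 tested genes 0 were called by limma, and the median was -0.28. At an unadjusted p under 0.05, 0 were higher and 3 lower, beside 2.09% and 16.5% of all genes. The 3 were Idh1, the cytosolic isocitrate dehydrogenase that forms NADPH (-0.38, SE 0.12), Pgls, the lactonase that follows G6pdx (-0.39, SE 0.12), and Rpia, ribose-5-phosphate isomerase (-0.30, SE 0.12). Groups were apart for each of them, as for 18.9% of all genes that were lower, and the adjusted p values by limma were 0.221, 0.224 and 0.257. Among the superoxide dismutases and catalase, 4 tested genes with 0 called by limma, Cat was higher at an unadjusted p under 0.05 (0.39, SE 0.11, adjusted p = 0.217). It had 40.4, 34.9 and 38.7 FPKM under Ang II and 48.7, 53.7 and 48.0 FPKM under Ang II + Tec, with no overlap. Among all genes 2.9% were higher without overlap. Sod3, the extracellular dismutase, and Sod1, the cytosolic one, overlapped between groups. Sod3 had a fold change of -0.75 (SE 0.56, adjusted p = 0.446 by limma) and was called, as lower with Tec, without Ang II replicate 3 (-1.37, adjusted p = 0.0274) and with library weights (-1.56, adjusted p = 0.0391). In these settings 544 of 12900 and 522 of 13089 genes were called over all.

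Over all 8 lists, 113 genes were tested beside the members, and 0 passed an adjusted p of 0.05 by limma. At an unadjusted p under 0.05, 5 were higher and 12 lower, beside 2.09% and 16.5% of all genes, and groups were apart for 8 higher and 15 lower genes, beside 2.9% and 18.9% of all genes. Their median of -0.065 lay above the -0.17 of all genes tested, near the -0.074 of the members.

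**Figure D3:**
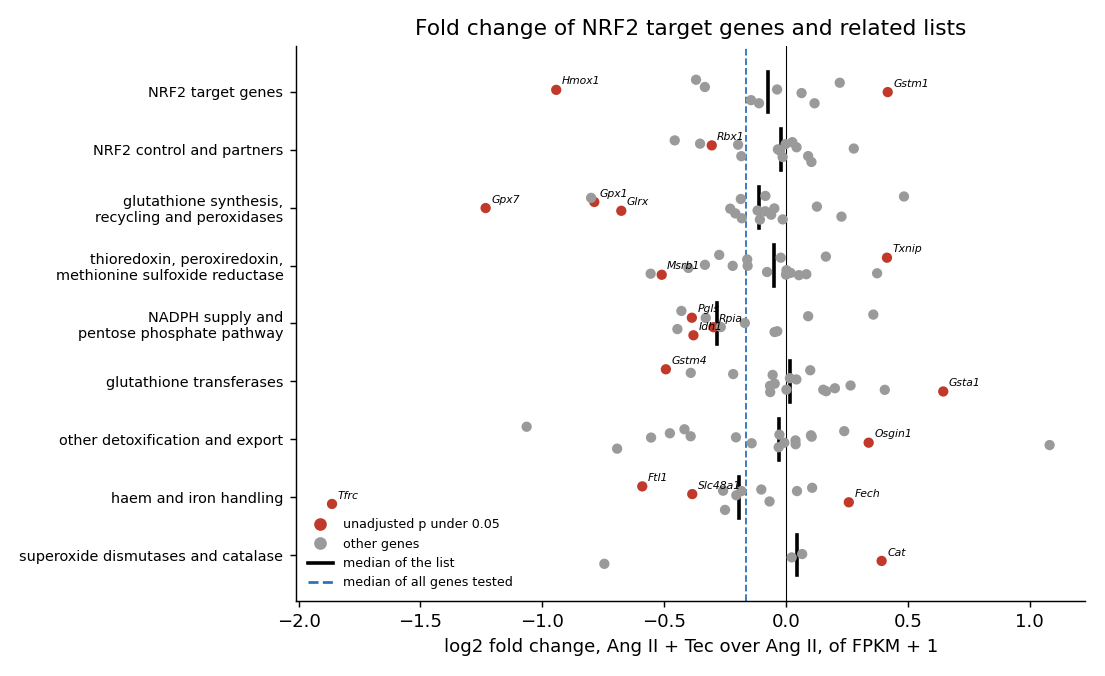
Log2 fold change of FPKM + 1, Ang II + Tec over Ang II (horizontal axis), for the 10 NRF2 genes and for 8 lists of related genes (vertical axis, 1 point per gene, spread vertically only for legibility). Genes at an unadjusted p under 0.05 are red and named, black bars are list medians and the dashed line is the median of all genes tested, -0.17. Medians run from -0.28 for NADPH supply and the pentose phosphate pathway to 0.045 for superoxide dismutases and catalase.

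The members also shared a pattern across libraries within groups. Ang II replicate 3 was the lowest Ang II library for 9 of 10 members, Gstm1 excepted, and Ang II + Tec replicate 2 was the highest of its group for 9 of 10, Nqo1 excepted. Both held for 8 members. Over all genes tested these shares were 71.9%, 69.3% and 54.4%, so most genes of these libraries had the same order. Between the libraries rich in atrial transcripts, the log2 difference of Hmox1 was -0.91, and between those poor in them -0.64. For Gstm1 these differences were 0.70 and 0.19, for Nqo1 0.16 and 0.37, and for Srxn1 -0.41 and -0.027. Of the 10 members 9 had the same sign in both kinds of library, Txnrd1 excepted (0.025 and -0.11). Among the 9 were Gclm (0.025 and 0.028) and Nfe2l2 (0.011 and 0.020), above 0 in both kinds although their estimates over all libraries were below 0. Each kind held 1 library of one of the groups, so these differences have no test, and the division was made after the data were seen. No share over all genes is given beside the count of equal signs, so it is a description only.

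Promoter sequence was read for members in a RefSeq table of windows of GRCm38.p6, from 250 bases before to 50 after each start. It held 7 of the 10 members, in 10 windows, and had no entry for Hmox1, Gclc and Gsta4. The core of the antioxidant response element was searched as TGACNNNGC on both strands, and the AP-1 element, which overlaps longer forms of it, as TGAGTCA on both strands. TGACNNNGC occurred in windows of 5 members, Nfe2l2, Srxn1, Gclm, Txnrd1 and G6pdx, that is in 5 of 10 windows, against 12.4% of all 32851 promoters. TGAGTCA occurred in that of Srxn1, at 2 positions, against 5.2% of all promoters. Shown are both AP-1 matches of Srxn1, the member with the most matches, and the core matches of the regulator Nfe2l2 and of Gclm, with the matched letters in capitals and the strand of the gene printed from 5′ to 3′.
Srxn1, chr2:152105412-152105438, plus strand: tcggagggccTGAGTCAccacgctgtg
Srxn1, chr2:152105469-152105495, plus strand: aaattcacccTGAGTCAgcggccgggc
Nfe2l2, chr2:75704885-75704913, minus strand: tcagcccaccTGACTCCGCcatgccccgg
Gclm, chr3:122245413-122245441, plus strand: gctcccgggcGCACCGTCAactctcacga
The match in Gclm is on the opposite strand and is therefore printed as its reverse complement. These matches are descriptions of the sequence, and the members that hold them included genes with estimates on either side of the median of all genes.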

How the data were processed

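The authors deposited gene values as FPKM for 6 libraries of poly(A)-selected RNA, sequenced as paired ends. The study's methods name Cutadapt and FastQC, and the submitters' processing notes list HISAT2 2.0, StringTie 1.3.0, Bowtie 0.12.2 and the build mm8. Coordinates in the deposited table were those of GENCODE M21 (GRCm38) for 27947 of 30832 genes found in both (90.6%), so GRCm38 was used. The sources differ in the sequencer they name.

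Genes with at least 0.5 FPKM in at least 3 of 6 libraries were tested (13089 of 30914) on log2(FPKM + 1) with limma 3.58.1 in R 4.3.3 (lmFit, eBayes with a variance trend), adjusted by Benjamini-Hochberg over all genes tested. Called genes had an adjusted p under 0.05 and differed by 1 or more on the log2 scale. The code was tested on simulated data. Per the series' design text, each library came from a separate mouse. The members and all gene lists were chosen with earlier results of these data known.

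Named genes were all members, and of each list every gene at an adjusted p under 0.05, the 3 with the lowest p and partners named for their level. Likeness was computed for members with a log2 range of at least 1. Shared sequence was counted in 50-base words of GENCODE M21 transcripts. Promoter sequences are from RefSeq (GRCm38.p6). Relative depth was taken from single-exon genes with at least 0.05 FPKM. The way of finding a step, that cutoff and the range searched were revised after the steps and estimates were seen. At 0.1 FPKM the estimates for Ang II + Tec replicates 2 and 3 were 0.841 and 0.829 in place of 1.31 and 1.27, and the cause was not tested. Alternatives were the pseudocount, the filter, 3 scalings (median of ratios, quantiles and equal sums of FPKM outside the mitochondrial genome), a replicate block, no variance trend, library weights, leaving out each library and, chosen after seeing the data, an atrial term for libraries with over 100 FPKM of Myl7. Tables were handled in Python 3.11.15 with pandas 2.3.3 and numpy 2.4.6, and figures drawn with matplotlib 3.10.9.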

Additional observations from a re-analysis of the deposited data

How the results depend on the processing

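The number of genes called over all genes tested was 21, and became 3 with no filter on low values, 522 with library weights, 13 with an atrial term (chosen after seeing the data) and 0 to 544 when 1 library was left out, where the filter on 3 libraries drops genes present in 1 group alone. Of the genes called, 52.4% were higher with Tec, against 9.77% with library weights, 69.2% with the atrial term, 100% of 3 with no filter, and 100% of 3, 83.3% of 6 and 11.9% of 544 when Ang II replicates 1, 2 and 3 in turn were left out. The members called, 0, became 1 with library weights and ranged from 0 to 1 when 1 library was left out, the 1 being Hmox1. The members at an unadjusted p under 0.05, 2, became 5 under median-of-ratios scaling, 5 under quantile normalization and 4 with library weights, and ranged from 1 to 3 when 1 library was left out. In both cases the 5 were Nqo1, Hmox1, Gclc, Gsta4 and Gstm1. With equal sums outside the mitochondrial genome there were 2, Hmox1 and Gstm1. Among all genes, library weights put 42.3% lower and 4.13% higher at that level. Without Ang II replicate 3, where 3 members passed, these shares were 39.2% and 4.32%. The median log2 fold change of the members ranged from -0.17 to 0.0017 when 1 library was left out, and was 0.13 by median of ratios, 0.15 by quantiles and -0.045 with equal sums, where the median of all genes was 0.0020, 0.020 and -0.14. The members' median was -0.17 with library weights and 0.021 with the atrial term, where that of all genes was -0.25 and -0.10. Signs turned for Gclm (0.15 by median of ratios, 0.17 by quantiles, -0.10 to 0.026 when 1 library was left out, above 0 without Ang II replicate 2 or Ang II + Tec replicate 1, 0.026 with the atrial term), Txnrd1 (0.057 by median of ratios, 0.077 by quantiles), Nfe2l2 (0.11 by median of ratios, 0.12 by quantiles, 0.016 with the atrial term) and Gclc (-0.028 with library weights). With equal sums Gclm, Txnrd1 and Nfe2l2 stayed below 0 (-0.0098, -0.12 and -0.080) and Gclc above it (0.090). For these changes the cause was not tested.

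With a replicate block 22 genes were called, 0 members were called, 2 were at an unadjusted p under 0.05 and the median of the members was -0.074. The adjusted p of Hmox1 was then 0.0810 by limma. Deviations of libraries with the same number correlated at -0.0394, 0.429 and 0.379, so the numbers were not taken to pair the samples. Library weights were 0.118, 1.51 and 0.383 under Ang II and 2.09, 0.707 and 9.96 under Ang II + Tec. Ang II replicate 2 and Ang II + Tec replicate 3 thus weighed most in their groups. The estimation of the weights stopped short of its tolerance. Genes in the 8 lists of related genes, cell type markers aside, were called only with library weights and without Ang II replicate 3. With 3 libraries a group and no counts, differences among genes of 2 to 5 FPKM such as Gclc, Gclm and G6pdx are limited by a relative depth that is itself uncertain.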

Other observations

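Fast skeletal muscle markers were the marker list with genes called, 2 of the 4 tested, beside 0.16% of all genes. Atp2a1, the calcium pump of fast muscle, had 0.1, 0.07 and 0.07 FPKM in the Ang II group and 6.30, 7.51 and 7.46 FPKM in the Ang II + Tec group (fold change 2.90, SE 0.11, adjusted p = 0.000251 by limma with Benjamini-Hochberg adjustment). Mylpf, a fast myosin light chain, had 0.58, 0.56 and 0.22 FPKM and 4.14, 3.44 and 4.55 FPKM (fold change 1.80, SE 0.15, adjusted p = 0.0142). Atp2a1 was also called without Ang II replicates 1, 2 or 3, and could not be tested without any 1 of the Ang II + Tec replicates, when it no longer passed the filter on low values. It passed that filter through the Ang II + Tec libraries alone, and with no filter its adjusted p was 0.00355 by limma. Mylpf had adjusted p values by limma of 0.0901 without Ang II replicate 1 and of 0.190, 0.0938 and 0.181 without Ang II + Tec replicates 1, 2 and 3, and of 0.0788 with no filter, with fold changes of 1.68 to 1.89 over the left-out libraries. Tnnt3, the most abundant gene of the list, had 6.91, 42.4 and 0.3 FPKM under Ang II and 1.41, 1.04 and 1.31 FPKM under Ang II + Tec. Its fold change went the other way, -1.77 (SE 1.09, adjusted p = 0.378 by limma), with overlapping groups. Tnni2 had a fold change of 0.78 (SE 0.57, adjusted p = 0.437 by limma), also with overlapping groups. Myh1 and Actn3 stayed under 0.5 FPKM in every library.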
